A study of Capra hircus with 3 samples.

Results

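At embryonic day 90 (E90), 143 of 6931 cells of fetal goat dorsal skin had the profile set for basal keratinocytes outside hair follicles, 2.06% of that library (95% exact binomial interval 1.74% to 2.43%), of 20676 cells in the whole series. The cells were selected on their measured values. A cell was taken when KRT5, KRT14, KRT15 and KRT17 summed to at least 80 CP10K, where CP10K is a cell's molecule count per 10000 of its molecules. Its sum of KRT1, KRT10, KRTDAP, SBSN, DSG1, DSC1, CALML5 and KRT4, genes of the layers above the basal one, had to be under 100 CP10K. It could hold molecules of at most 1 of LHX2, SEMA3E, AK8, CHGA, PDGFA and SOX9, taken as genes of follicle cells. These 18 genes are described below as what chose the cells, and no test was made on them.

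The series followed hair follicle formation in Northern Shaanxi White Cashmere Goats by single-cell RNA sequencing (10x Genomics 3′ libraries, version 3) on embryonic days 60 (E60), 90 and 120 (E120), and each stage was 1 library. At each stage, cells of at least 2 fetuses were pooled before barcoding, and the fetuses cannot be told apart in the table. At E60 and E90 the whole dorsal skin was digested with collagenase IV and broken up by pipetting, whereas at E120 follicles were dissected and digested with TrypLE, so stage and preparation cannot be told apart. No treatment or genotype was compared. With 1 library per stage there is no replicate and no test between groups of cells, and every value below describes these libraries. Intervals are exact 95% Poisson intervals for summed molecules, exact conditional intervals for ratios and exact binomial intervals for shares, and they cover counting error only.

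Basal keratinocytes form the innermost layer of the epidermis and hold its dividing cells. They are known for the keratin pair KRT5 and KRT14, and they are fixed to the basement membrane by hemidesmosomes, which contain the integrin ITGA6 with ITGB4, the collagen COL17A1 and the cytolinker DST. Cells that leave the layer switch to KRT1 and KRT10, and cells that enter a hair placode or follicle turn on genes such as LHX2, SOX9 and SHH.

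Of the 6931 E90 cells, 821 reached the keratin minimum, 695 of those also stayed under the suprabasal maximum, and 143 of those had at most 1 follicle gene. The 126 cells at or above the suprabasal maximum are called suprabasal cells below. The 552 cells with at least 2 follicle genes are called follicle cells, and the 6110 cells under the keratin minimum are called keratin-low cells. A reference for cells that should lack these keratins was taken from the keratin-low cells as the 417 cells with at least 100 CP10K of a list of fibroblast genes. The selected cells held 543818 molecules (UMIs), with a median of 3470 per cell and a range of 3022 to 7508. The medians were 3936 in suprabasal cells, 4421 in follicle cells and 5080 in the fibroblast reference. No barcode of a selected cell recurred in either of the other libraries, although E90 shared 9 barcodes with E60 and 13 with E120.

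**Figure D1:**
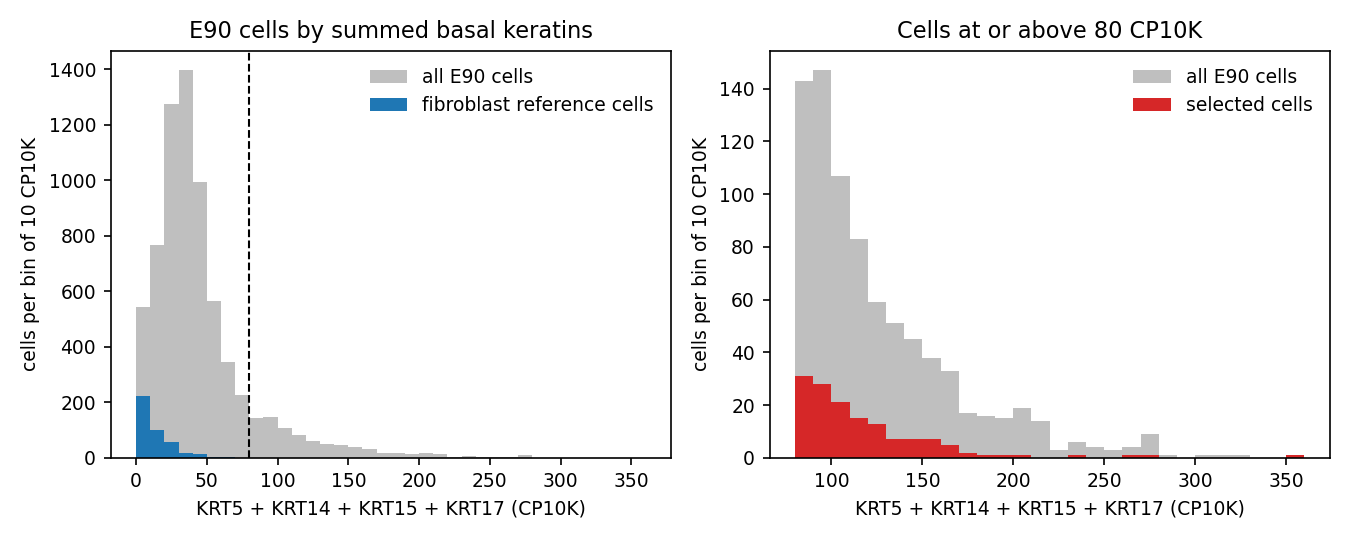
Number of E90 cells (vertical axis) by the sum of the 4 basal keratins in bins of 10 CP10K (horizontal axis). Left, all E90 cells in grey with the fibroblast reference in blue and the minimum of 80 as a dashed line; right, cells at or above the minimum, with the 143 selected cells in red. Cells thin out steadily across the minimum, and no gap separates the selected cells from the rest.

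The keratin sum cut a continuous range and did not mark a separate population. Its median over all E90 cells was 36.2 CP10K, its 90th percentile was 88.8 CP10K, and 20 of the 6931 cells had no molecule of the 4 keratins. In the selected cells the sum ran from 80.05 to 356 CP10K with a median of 106. The fibroblast reference had a median of 9.30 CP10K, so a low keratin signal was present in nearly all cells of the library. The 59 selected cells with a sum between 80 and 100 CP10K had a median of 89.1, and the 125 cells just outside, between 60 and 80 CP10K and passing the other 2 steps, had a median of 68.4. The median of the summed desmosome and junction genes was 25.6 CP10K just inside and 25.7 CP10K just outside, against 32.4 CP10K in the 84 selected cells with a sum of at least 100. For the fibroblast genes these medians were 35.4, 38.2 and 26.2 CP10K. Cells on either side of the minimum were therefore close in both measures, and the selected cells farther from it had more junction and less fibroblast RNA.

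The last step of the rule moved with sequencing depth. Among the 695 cells that passed the first 2 steps, 39.7% (32.3% to 47.3%) were selected in the shallowest of 4 depth groups, with 3003 to 3428 UMIs per cell. The shares were 24.7% and 11.5% in the next groups and 6.36% (3.22% to 11.1%) in the deepest, with 5470 to 17394 UMIs. When every cell was thinned to 2000 UMIs, 389 cells passed the rule, 169 of them from the follicle cells, and 123 of the 143 selected cells still passed. At this equal depth the selected cells held a mean of 0.510 of the 6 follicle genes, the fibroblast reference 0.513, keratin-low cells 1.14, suprabasal cells 1.33 and follicle cells 1.94. The rule itself held the selected cells to at most 1 of these genes and follicle cells to at least 2. The low and high means of these 2 sets therefore follow from the selection. In the selected cells, 113 had 1 follicle gene and 30 had none. SOX9, a transcription factor of the follicle outer root sheath and its stem cells, was the gene present in 65 of them. PDGFA, a growth factor that placodes send to the dermis, was present in 24, the follicle transcription factor LHX2 and the guidance factor SEMA3E in 11 each, AK8 in 2 and CHGA in 0.

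**Figure D2:**
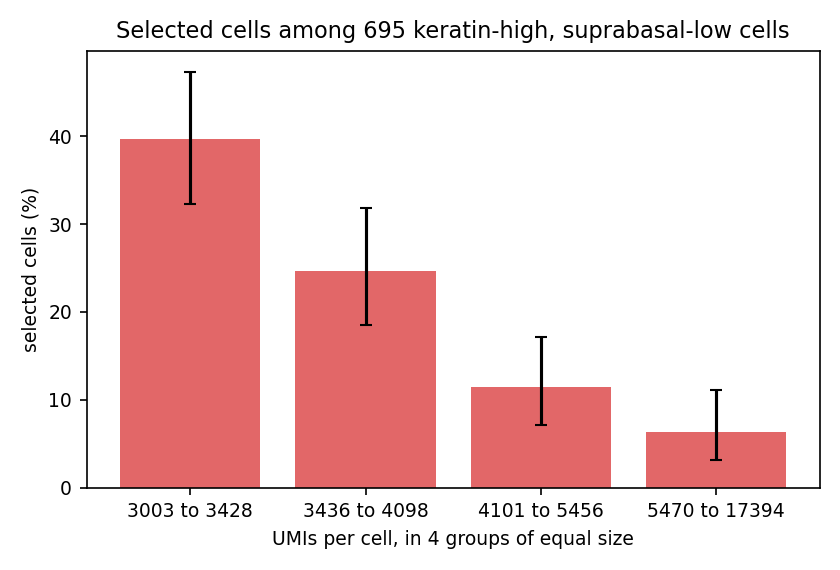
Share of selected cells (vertical axis, percent, with exact 95% binomial intervals) among the 695 E90 cells that passed the keratin and suprabasal steps, in 4 groups by UMIs per cell (horizontal axis). The share was 39.7% in the shallowest group and 6.36% in the deepest.

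The keratin of the selected cells was mainly KRT17, a keratin of follicle epithelium, periderm and activated epidermis. KRT17 was the highest of the 4 keratins in 132 of the 143 cells (ties counted for each keratin), KRT14 in 12, KRT15 in 1 and KRT5 in 0. All 143 cells had a UMI of KRT17, 133 of KRT14, 121 of KRT5 and 86 of KRT15, and 66 had all 4. Median levels per cell were 77.0 CP10K of KRT17, 17.3 CP10K of KRT14, 5.69 CP10K of KRT5 and 2.70 CP10K of KRT15. UMIs were also summed over each set of cells and scaled to a total of 1000000, as counts per 1000000 (CPM). In the sum of the selected cells KRT17 reached 8543 CPM, against 3237 CPM in the other 6788 E90 cells and 759 CPM in the fibroblast reference. KRT14, the partner of KRT5 in basal cells, reached 2102 CPM, against 734 CPM and 192 CPM. Both keratins chose the cells, so higher levels in the selected cells were built into the selection.

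**Figure D3:**
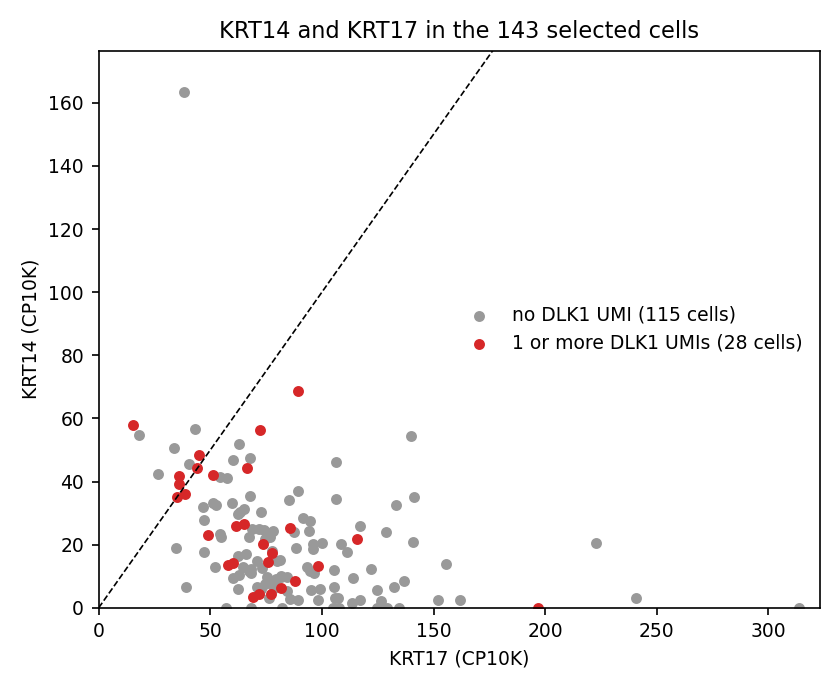
KRT14 (vertical axis) against KRT17 (horizontal axis) in each of the 143 selected cells, both in CP10K, with the 28 cells that held a DLK1 UMI in red and equality as a dashed line. Most cells lie below the line, with KRT17 above KRT14, and 10 lie above it.

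The label was then checked with basal genes that the rule did not use. Hemidesmosome and basal regulator genes were detected unevenly. COL17A1, the transmembrane collagen of hemidesmosomes, had 48 UMIs in 36 selected cells, 88.3 CPM (65.1 to 117), against 46.8 CPM in the other E90 cells and 11.4 CPM in the fibroblast reference. The ratio to the other E90 cells was 1.88 (1.38 to 2.51). Where KRT14 did not exceed KRT17, COL17A1 was at 71.1 CPM in suprabasal cells and 74.3 CPM in follicle cells. Both levels lay within the interval of the selected cells. In the remaining suprabasal and follicle cells it was at 49.5 CPM (4 UMIs) and 181 CPM (8 UMIs). ITGA6, the hemidesmosome integrin subunit, was at 57.0 CPM (38.7 to 80.9) in 24 selected cells, 3.45 times (1.60 to 8.24) its 16.5 CPM in suprabasal cells, and at 57.3 CPM in follicle cells. Its partner ITGB4 had 2 UMIs in all selected cells together, a log2 ratio of -0.34 to the other E90 cells. TP63, the transcription factor that defines the basal layer, had 3 UMIs, a log2 ratio of -0.79. Both were thus lower than in the other E90 cells, on very few UMIs, and both ratios changed sign under some settings. The laminin chains LAMA3 and LAMB3 had 8 and 9 UMIs. DST, which ties keratin to hemidesmosomes but is also made by other cells, was at 265 CPM (223 to 312) in the selected cells and at 355 CPM in the fibroblast reference.

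Summed over 8 basal markers, DST among them, the selected cells stood at 456 CPM (401 to 516), suprabasal cells at 389 CPM (338 to 445), keratin-low cells at 403 CPM (395 to 410) and the fibroblast reference at 406 CPM (381 to 432). All of these intervals overlapped that of the selected cells. Follicle cells were highest over the 8 markers, at 539 CPM (513 to 566), an interval that also overlapped that of the selected cells. Over the 7 markers other than DST, the selected cells stood at 191 CPM (156 to 232). This was above suprabasal cells at 108 CPM (82.4 to 140), above keratin-low cells at 122 CPM (118 to 126) and above the fibroblast reference at 50.5 CPM (41.8 to 60.3). Follicle cells stood at 215 CPM (198 to 232), an interval that overlapped that of the selected cells. The difference from suprabasal cells thus held for the 7 markers and not with DST, which was at 281 CPM in suprabasal cells. The basal markers did not separate the selected cells from follicle cells, and most of them rested on few UMIs. They are called the selected cells here, by their rule, and the word basal is not used as a cell type for them.

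Against the other 6788 E90 cells, most of the selected cells' genes outside the rule were close in level. A gene was counted as higher or lower when the log2 ratio of CPM + 1 was at least 2-fold, among the 4523 genes that reached 20 CPM in either sum (10.9 UMIs in the selected cells). By this measure 63 genes (1.39%) were higher and 144 (3.18%) lower in the selected cells, the genes of the rule included, and the median log2 ratio was -0.04. By any amount, 45.9% of the tested genes were higher. At 11 UMIs in the selected cells, a level of 20.2 CPM had an interval of 10.1 to 36.2 CPM. Counting error alone could therefore carry genes this low to about 2-fold, and its part in these counts is not given here. Across the keratin minimums tried, the total of 207 ranged from 7 at 40 CP10K (704 cells) to 1697 at 160 CP10K (14 cells). Of 1067 genes with at least 100 CPM, 15 were higher and 22 lower. Without the rule's own genes these numbers were 11 and 18.

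The genes furthest above the other E90 cells were DLK1 and 7 others that were all low in the fibroblast reference. DLK1, a membrane protein related to the NOTCH ligands, was at 147 CPM (117 to 183) against 36.9 CPM, a ratio of 3.99 (3.14 to 5.01). Its 80 UMIs lay in 28 of the 143 cells and 17 of them in 1 cell, and without that cell the level was 117 CPM. S100A2, a calcium-binding protein of basal keratinocytes, was at 723 CPM (653 to 798) against 278 CPM, a ratio of 2.60 (2.35 to 2.88). TM4SF1, a tetraspanin-like surface protein, was at 837 CPM against 336 CPM, a ratio of 2.49 (2.26 to 2.74). The small heat shock protein HSPB8 was at 211 CPM against 81.8 CPM. The small GTPase RHOV was at 307 CPM against 135 CPM, and the cell cycle inhibitor CDKN1A at 314 CPM against 141 CPM. KRT7, a keratin of simple and glandular epithelia, was at 320 CPM (274 to 371) in 75 cells, against 142 CPM, and the serpin SERPINB10 at 127 CPM against 57.0 CPM. Each of these 8 genes was at under 80 CPM in the fibroblast reference, below every lower bound of their intervals in the selected cells. In follicle cells 7 of them had ratios between 0.846 and 1.34, the exception being DLK1. HSPB8, RHOV, KRT7 and TM4SF1 were higher still in suprabasal cells. They were at 545, 532, 539 and 905 CPM in those where KRT14 did not exceed KRT17. In the other suprabasal cells they were at 581, 791, 1311 and 1508 CPM. DLK1, at 25.7 CPM in all suprabasal cells, and S100A2, at 452 and 346 CPM in these 2 sets, were lower there.

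The genes furthest below the other E90 cells included several that were high in the fibroblast reference. PTH1R, the receptor of parathyroid hormone-like hormone, was at 79.1 CPM against 188 CPM, and at 366 CPM in the reference. PENK, the enkephalin precursor, was at 149 CPM against 338 CPM, and at 1194 CPM in the reference. NOVA1, an RNA-binding protein, was at 53.3 CPM against 122 CPM, IGF1 at 64.4 CPM against 162 CPM, the smooth muscle actin ACTA2 at 38.6 CPM against 103 CPM and CAMK2N1 at 36.8 CPM against 103 CPM. LYPD2 was at 57.0 CPM against 143 CPM, with 275 CPM in suprabasal cells. The globin HBAII was at 287 CPM against 718 CPM, from 26 of the selected cells.

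Basal regulators as a list lay somewhat above the other E90 cells, with 13 of 18 tested genes higher by any amount, 1 of them 2-fold, none 2-fold lower, and a median log2 ratio of 0.25, against 1.39%, 3.18% and 45.9% of all tested genes 2-fold higher, 2-fold lower and higher by any amount. The 1 past 2-fold was TRIM29, a keratin-binding protein of basal cells, at 38.6 CPM (23.9 to 59.0) in 15 cells against 16.2 CPM, a ratio of 2.39 (1.46 to 3.69). TFAP2A, a transcription factor of surface ectoderm, was at 447 CPM (392 to 507) against 293 CPM, a ratio of 1.53 (1.34 to 1.73). KLF5, a factor of dividing epithelium, was at 370 CPM against 273 CPM, a ratio of 1.35 (1.17 to 1.56). Late differentiation and barrier genes outside the rule had 11 of 15 tested genes higher by any amount, with 1 gene 2-fold higher, 1 lower and a median of 0.16. KLF4, a factor of barrier formation, was at 1000.3 CPM against 693 CPM. ZNF750, a differentiation factor, was the gene past 2-fold, at 55.2 CPM in 21 cells against 25.02 CPM, a ratio of 2.20 (1.48 to 3.17). The gene 2-fold lower was LYPD2, at 57.0 CPM against 143 CPM. Suprabasal cells had 598 CPM of TFAP2A, 745 CPM of KLF5, 1356 CPM of KLF4 and 105 CPM of ZNF750, each above the selected cells, which lay between them and the bulk of the library in these 4 genes. As a list, basal regulators lay below suprabasal cells. There 6 of 19 tested genes were higher by any amount (42.5% of all), 3 were 2-fold lower (10.6% of all), and the median was -0.42 (-0.13 for all). Against follicle cells 6 of 19 were higher by any amount (41.6% of all), 1 was 2-fold lower (2.73% of all), and the median was -0.23 (-0.07 for all).

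Of the hemidesmosome and basement membrane list, 13 genes were tested, none was 2-fold higher, 7 were higher by any amount, and the median was 0.18. The whole list summed to 1170 CPM in the selected cells and to 1259 CPM in the other E90 cells. The 1 gene 2-fold lower was COL4A2, a basement membrane collagen, at 34.9 CPM against 73.3 CPM and at 154 CPM in the fibroblast reference. Of 15 desmosome and junction genes none was 2-fold different, 11 were higher by any amount (45.9% of all tested genes), and the median was 0.37. DSP, which anchors keratin in desmosomes, was at 675 CPM (608 to 748) against 444 CPM, with a ratio of 1.52 (1.37 to 1.69). DSC3, the desmosomal cadherin of lower epidermal layers, was at 156 CPM against 78.7 CPM, a ratio of 1.99 (1.58 to 2.47). The adhesion protein EPCAM was at 103 CPM against 61.1 CPM and the tight junction protein CLDN1 at 623 CPM against 465 CPM. The fibroblast reference had 127 CPM of DSP, 24.0 CPM of DSC3, 24.0 CPM of EPCAM and 151 CPM of CLDN1. Beyond the keratins of the rule, 4 other epithelial keratins were tested, of which KRT7 was the 1 past 2-fold, and KRT8 was at 47.8 CPM against 59.1 CPM.

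**Figure D4:**
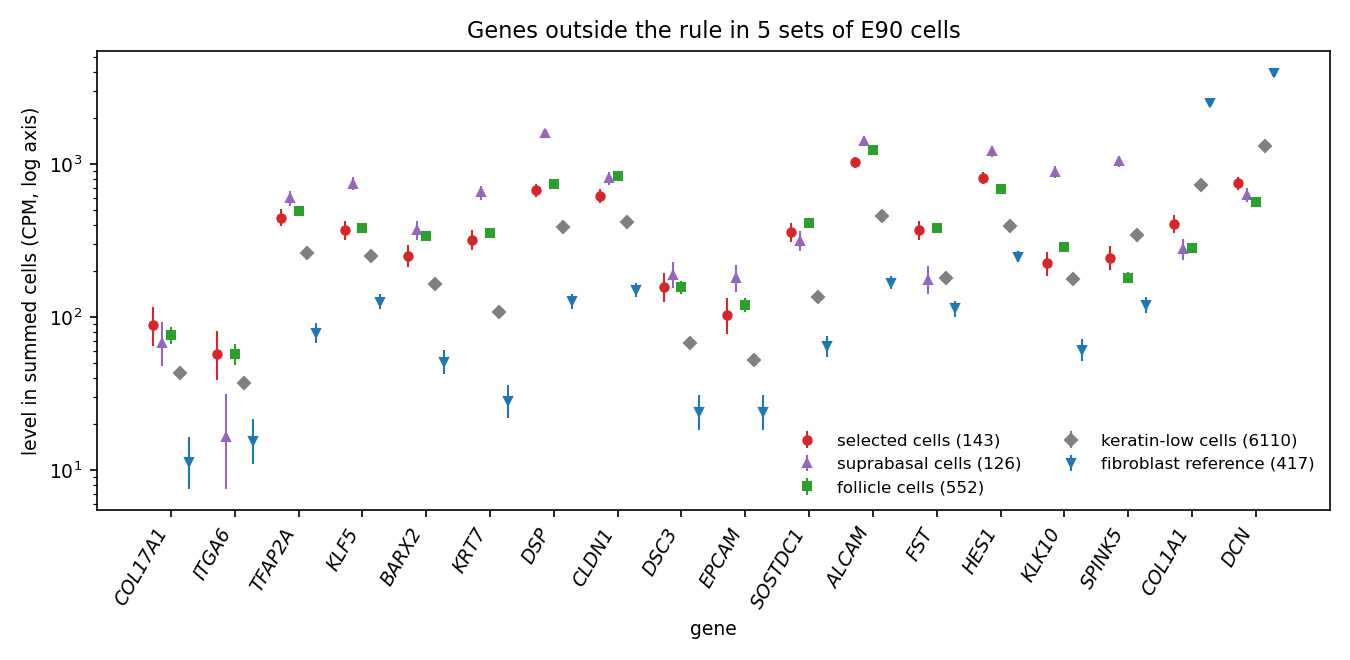
Level (CPM on a log axis, exact 95% Poisson intervals) of 18 genes that the rule did not use, in the selected cells, suprabasal cells, follicle cells, keratin-low cells and the fibroblast reference of E90. Red and green points lie close together for most genes, and COL1A1 and DCN are far higher in the fibroblast reference.

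Against the 6110 keratin-low cells alone, 88 of 4528 tested genes (1.94%) were 2-fold higher in the selected cells and 175 (3.86%) lower. By any amount 46.9% of these genes were higher, and their median log2 ratio was -0.03. The junction list had 1 of 15 genes 2-fold higher, DSC3 at 156 CPM against 67.9 CPM, 12 higher by any amount and a median of 0.57. The fibroblast list had 3 of 14 genes 2-fold lower, COL6A2, COL6A3 and LOX, none higher by any amount and a median of -0.79. Basal regulators had 1 of 18 higher, TRIM29, and a median of 0.31.

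Against the 126 suprabasal cells, which were set apart by the rule's own suprabasal sum, more genes differed, and mostly downward. Of 4800 tested genes 173 (3.6%) were 2-fold higher in the selected cells and 510 (10.6%) lower, 42.5% were higher by any amount, and the median log2 ratio was -0.13. Of 16 late differentiation and barrier genes outside the rule, 11 were 2-fold lower in the selected cells, none was higher by any amount, and the median was -1.72. CASP14, the protease of cornification, was at 20.2 CPM (10.1 to 36.2) against 149 CPM, 7.35-fold (3.90 to 15.3) lower. CSTA, a protease inhibitor of the cornified envelope, was at 31.3 CPM against 215 CPM, and the envelope protein CNFN at 16.5 CPM against 112 CPM. SPINK5, the inhibitor of skin kallikreins, was at 245 CPM (205 to 290) against 1046 CPM, 4.28-fold (3.54 to 5.20) lower, and the kallikrein KLK12 at 60.7 CPM against 268 CPM. MMP7 was at 42.3 CPM against 246 CPM and ARRDC4 at 22.1 CPM against 110 CPM. With a suprabasal maximum of 200 CP10K the log2 ratios of CSTA and MMP7 turned to 6.61 and 1.34. That setting raised the selected cells to 183 and kept as suprabasal only cells with a sum of at least 200. The third quartile of this sum in the 126 cells was 192 CP10K, so most of them left the comparison. The late barrier genes were thus lower than in cells chosen for suprabasal genes, but they summed to 1929 CPM against 1746 CPM in the other E90 cells and 1878 CPM in follicle cells. KRT1, KRT10 and the other suprabasal genes of the rule summed to 3727 CPM in them and to 1404 CPM in the fibroblast reference.

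Junction genes were mostly lower in the selected cells than in suprabasal cells as well, with 6 of 17 tested genes 2-fold lower and none 2-fold higher. By any amount 3 of the 17 were higher, and the median log2 ratio was -0.37. Of all tested genes 10.6% were 2-fold lower and 42.5% higher by any amount, with a median of -0.13. DSP was 2.37-fold (2.10 to 2.69) lower and the tight junction protein CLDN4 was 3.43-fold (1.94 to 6.41) lower. AREG, a ligand of the EGF receptor, was at 219 CPM against 844 CPM. In the other direction stood DLK1 at 147 CPM against 25.7 CPM, a ratio of 5.73 (3.22 to 10.9), and FST, the activin antagonist, at 370 CPM against 176 CPM, a ratio of 2.10 (1.64 to 2.70). CENPF, a kinetochore protein of dividing cells, was at 158 CPM (126 to 195) against 66.1 CPM. The nuclear factor LMO1 was at 153 CPM against 73.4 CPM, DEPP1 at 149 CPM against 62.4 CPM (a log2 ratio that turned to -0.40 with a keratin minimum of 160), and CAV2 at 145 CPM against 73.4 CPM. The globins HBAI and HBAII were at 1000.3 CPM and 287 CPM against 358 CPM and 80.7 CPM, and both ratios turned below 1 in the 48 selected cells with a keratin sum of at least 120 CP10K and in the 30 selected cells with no follicle gene.

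Against the 552 follicle cells, 56 of 4539 tested genes (1.23%) were 2-fold higher in the selected cells and 124 (2.73%) lower. Across the keratin minimums tried, the total of 180 ran from 16 at 40 CP10K (704 cells) to 1592 at 160 CP10K (14 cells). It was 1119 with no follicle gene allowed (30 cells). At 100 CPM or more, 2 of 1063 genes were higher, DLK1 and 1 gene without a symbol, and 10 lower, and 4 of the 10 were genes of the rule. PTHLH, a hormone-like factor that follicle epithelium sends to the dermis, was at 34.9 CPM (21.0 to 54.6) against 120 CPM, 3.44-fold (2.17 to 5.78) lower. ATP1B1, a sodium pump subunit, was at 71.7 CPM against 193 CPM, 2.69-fold (1.94 to 3.82) lower. DUSP6, a phosphatase induced by FGF and ERK signalling, was at 145 CPM (115 to 181) against 319 CPM, 2.19-fold (1.74 to 2.80) lower. SLC30A1, PLAU, SNRNP25, SPP1 and FOXO1 were next, at 1.88 to 2.10-fold lower. The zinc exporter SLC30A1 was at 58.8 CPM, the protease PLAU at 64.4 CPM and the secreted phosphoprotein SPP1 at 158 CPM in the selected cells. The log2 ratio of SPP1 turned from -0.98 to 0.38 when up to 2 follicle genes were allowed.

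Among genes with a symbol, DLK1 lay furthest above follicle cells, at 147 CPM against 54.5 CPM, a ratio of 2.70 (2.03 to 3.55). TGFBI, POSTN, CAV2, CCDC80, RND3, COL1A1 and MYH10 followed with ratios of 1.44 to 1.55, of which that of CAV2 turned below 1 in the cells with no follicle gene (log2 -0.31). POSTN, a matrix protein of dermis, was at 366 CPM against 241 CPM and at 1752 CPM in the fibroblast reference, and COL1A1, the main dermal collagen, at 408 CPM against 283 CPM and at 2533 CPM in the reference. All 8 of these genes but DLK1 were less than 2-fold different. The fibroblast list summed to 3119 CPM in the selected cells and to 2383 CPM in follicle cells, and its part in the POSTN and COL1A1 ratios was not tested.

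Placode and follicle genes other than the 6 in the rule did not part the selected cells from follicle cells. Of 19 tested, none was 2-fold different, 7 were higher by any amount in the selected cells (41.6% of all tested genes), and the median was -0.11, against -0.07 for all. SOSTDC1, a BMP and WNT antagonist of the placode border and the epidermis between placodes, was at 360 CPM (312 to 415) in the selected cells and 411 CPM in follicle cells, and its ratio to all other E90 cells was 2.17 (1.87 to 2.51). It was the 1 of 20 genes of this list past 2-fold against the other E90 cells, and none was 2-fold lower. LGR5, a receptor of follicle stem cells, was at 47.8 CPM (31.2 to 70.1) against 92.9 CPM in follicle cells, 1.94-fold (1.30 to 3.03) lower. SHH, the signal of follicle downgrowth, had 6 UMIs in the selected cells, at 11.03 CPM against 16.2 CPM in follicle cells. The ectodysplasin receptor EDAR had 0 UMIs, which on the floor of 3 counts allows a level of up to 5.52 CPM. ALCAM, a cell adhesion molecule, was at 1033 CPM against 1242 CPM in follicle cells and 552 CPM in the other E90 cells. FST was at 370 CPM against 382 CPM in follicle cells and 201 CPM in the other E90 cells.

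**Figure D5:**
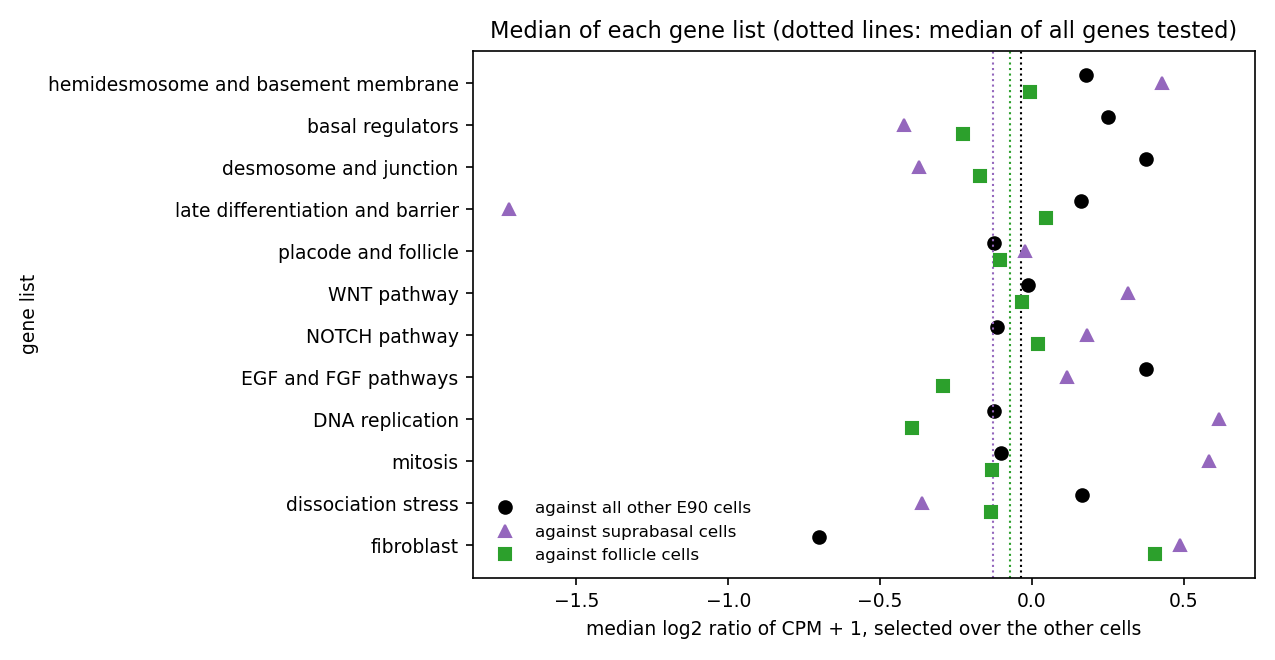
Median log2 ratio of CPM + 1 (horizontal axis, selected cells over the comparison cells) for 12 gene lists (vertical axis), against all other E90 cells, suprabasal cells and follicle cells; dotted lines mark the median of all genes tested. Late differentiation genes have the lowest median, -1.72 against suprabasal cells, and the fibroblast list is at -0.70 against all other E90 cells and at 0.40 against follicle cells.

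Against the other E90 cells, the medians of the WNT, NOTCH and EGF and FGF lists lay between -0.12 and 0.38, with -0.04 for all tested genes, of which 1.39% were 2-fold higher and 3.18% lower. Of 15 WNT pathway genes none was 2-fold higher and 1 was lower, the ligand WNT5B with 1 UMI in the selected cells, and the median was -0.01. LEF1, the nuclear partner of beta-catenin, was at 75.4 CPM against 94.4 CPM, and its ratio of 0.799 had an interval that included 1 (0.572 to 1.09). Of 7 NOTCH pathway genes none was 2-fold different and the median was -0.12, while HES1, its main transcriptional target, was at 813 CPM (739 to 892) against 436 CPM, a ratio of 1.86 (1.69 to 2.05). The NOTCH ligand JAG1 was at 93.8 CPM against 116 CPM. Of 7 genes of the EGF and FGF pathways 1 was 2-fold higher and 1 lower, with a median of 0.38. The FGF receptor FGFR1 was the lower one, at 47.8 CPM against 109 CPM and at 211 CPM in the fibroblast reference. The EGF receptor ligand HBEGF was the higher one, at 57.0 CPM (38.7 to 80.9) in 25 cells against 25.4 CPM, and AREG was at 219 CPM against 112 CPM, a ratio of 1.96 (1.62 to 2.36).

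Of 22 genes for secreted signals tested against the other E90 cells, 1 was 2-fold higher, the cytokine IL18 at 31.3 CPM against 13.6 CPM. None was 2-fold lower and 8 were higher by any amount, with a median of -0.11. Of all tested genes 1.39% were 2-fold higher, 3.18% 2-fold lower and 45.9% higher by any amount, with a median of -0.04. CXCL14, a chemokine made in quantity by skin epithelium, was found in all 143 selected cells, at 2624 CPM (2490 to 2764). It was at 3185 CPM in the other E90 cells, at 3887 CPM in follicle cells and at 1472 CPM in suprabasal cells, and it also reached 1882 CPM in the fibroblast reference. IGFBP5, which binds insulin-like growth factors, was at 145 CPM against 74.8 CPM in the other E90 cells, a ratio of 1.94 (1.53 to 2.43), and its log2 ratio turned to -0.20 with a keratin minimum of 120. The chemokine receptor CXCR4 was at 175 CPM against 322 CPM.

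The share of dividing cells was measured as cells with at least 2 UMIs of mitosis genes after thinning to 2000 UMIs. It was 35.0% (27.2% to 43.4%) of the selected cells, 29.4% (21.6% to 38.1%) of suprabasal cells, 38.6% (34.5% to 42.8%) of follicle cells, 40.4% (39.2% to 41.7%) of keratin-low cells and 23.7% (19.7% to 28.1%) of the fibroblast reference. Without thinning the shares were 58.7%, 54.0%, 69.0%, 67.7% and 53.5%. For DNA replication genes the thinned shares were 28.7% (21.4% to 36.8%) of the selected cells, 17.5% (11.3% to 25.2%) of suprabasal cells, 32.1% of follicle cells and 30.4% of keratin-low cells. In sums, 3 of 12 mitosis genes, CENPF, CCNB2 and PRC1, were 2-fold higher in the selected than in the suprabasal cells and all 12 were higher by any amount, with a median of 0.58. Of all tested genes 3.6% were 2-fold higher and 42.5% higher by any amount in that comparison, with a median of -0.13. Of 9 replication genes 1 was 2-fold higher, CLSPN at 22.1 CPM against 9.17 CPM, and all 9 were higher, with a median of 0.62. Against all other E90 cells none of 13 mitosis and none of 9 replication genes was 2-fold different. Since the reference also gave shares of 23.7% and 19.9%, whether free RNA added to these counts was not tested.

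Markers of other cell types were counted in the same sums. The fibroblast list had a UMI in 99.3% of the selected cells and summed to 3119 CPM, against 5025 CPM in the other E90 cells, 2407 CPM in suprabasal cells and 16729 CPM in the fibroblast reference, and 1 of its 16 measured genes was at 0. Against the other E90 cells 3 of 14 tested fibroblast genes, again COL6A2, COL6A3 and LOX, were 2-fold lower and none was higher by any amount. Of all tested genes 3.18% were 2-fold lower and 45.9% higher by any amount. Myeloid genes summed to 9.19 CPM with 9 of 12 at 0, and skeletal muscle genes had 9 of 10 at 0. Melanocyte genes summed to 53.3 CPM, and MITF, DCT, TYRP1, SOX10 and EDNRB were at 0. Merkel cell genes summed to 69.9 CPM with ATOH1, their defining factor, at 0. Endothelial genes summed to 71.7 CPM, mast cell genes to 60.7 CPM and globin and other erythroid genes to 1291 CPM. Dissociation stress genes summed to 18679 CPM, with 16158 CPM in the other E90 cells and 25762 CPM in suprabasal cells, none of 17 was 2-fold different from the other E90 cells, and their part in the levels of HSPB8, CDKN1A or KLF4 was not tested. The median mitochondrial share was 9.46% of UMIs in the selected cells, 11.2% in the other E90 cells and 7.62% in suprabasal cells.

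The selected cells varied among themselves along the keratin sum. In 4 groups of 36, 36, 36 and 35 cells from the lowest to the highest sum, desmosome and junction genes were at 2625 CPM (2361 to 2911), 2595 CPM, 3464 CPM and 4071 CPM (3735 to 4430). The lowest group and the next were close, and the intervals of the lowest and highest groups did not overlap. These intervals cover counting error of the summed UMIs only, and not the spread between cells. The groups were cut on the keratin sum that also chose the cells, and the trend was not tested. Other epithelial keratins went from 336 CPM (246 to 449) in the lowest group to 799 CPM (654 to 967) in the highest, with KRT7 at 175 CPM, 199.6 CPM, 302 CPM and 611 CPM. Fibroblast genes were at 3671 CPM (3357 to 4006) in the lowest and 2812 CPM (2534 to 3113) in the highest group. CDKN1A was at 124 CPM (72.4 to 199) in the lowest group and at 558 CPM (438 to 700) in the highest, and AREG at 124 CPM and 415 CPM. Hemidesmosome and basement membrane genes did not follow this order, at 1031 CPM, 1131 CPM, 1337 CPM and 1176 CPM. HBAI was uneven, at 1324 CPM, 621 CPM, 1811 CPM and 204 CPM. Over all 6931 E90 cells thinned to 2000 UMIs, the 8 genes with the highest rank correlation with the keratin sum were DSP, ALCAM, TM4SF1, ATF3, S100A2, CLDN1, S100A11 and RHOV. Their Spearman coefficients ran from 0.28 for DSP to 0.23 for RHOV, of 1480 genes, as a description of sparse counts within 1 library. Within the 143 selected cells the coefficients of RHOV, TM4SF1, ALCAM and DSP were 0.31, 0.23, 0.21 and 0.18, while those of S100A11, CLDN1, S100A2 and ATF3 were 0.15, 0.10, 0.04 and -0.02.

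At the other stages few cells passed the same rule, 1 of 6849 at E60 and 88 of 6896 at E120 (1.28%, 1.02% to 1.57%). The E120 cells were deeper, with a median of 11312 UMIs, and came from dissected follicles. Against them 1547 of 4589 tested genes (33.7%) were 2-fold higher in the E90 cells and 716 (15.6%) lower, with a median log2 ratio of 0.45, so the whole profile was shifted. Of the 13 fibroblast genes tested all were 2-fold higher at E90. OGN and LUM, both matrix proteoglycans, were at 452 CPM and 331 CPM at E90 and had 0 UMIs at E120. Against a floor of 3 counts in the E120 sum, OGN was at least 178-fold higher and LUM at least 130-fold higher at E90. PLAC9, COL1A2, CCDC80, LRRC17, COL1A1 and PENK followed, with at most 2 UMIs each at E120. Of the keratins that chose both sets, KRT14 was at 12368 CPM and KRT17 at 10064 CPM at E120, against 2102 CPM and 8543 CPM at E90.

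The genes furthest below the E120 cells that passed the rule included inner root sheath and hair keratins. FABP3.1, KRT71, SERPINB13, KRT25, FABP9, KRT75 and KRT84 had no UMI in the selected E90 cells, and NPTX2 had 1. Not every gene of these layers was absent, since the hair shaft factor HOXC13 had 6 UMIs. FABP3.1 differed most, at 19498 CPM at E120, at least 3534-fold higher on the floor of 3 counts at E90. NPTX2 was at 812 CPM at E120. KRT71 and KRT25, keratins of the inner root sheath, were at 1451 CPM and 637 CPM at E120. Against the floor of 3 counts at E90, 5.52 CPM, KRT71 was at least 263-fold higher and KRT25 at least 115-fold higher at E120. KRT75, of the companion layer, was at 373 CPM and KRT84, a hair keratin, at 356 CPM, and FABP9 was at 468 CPM and SERPINB13 at 728 CPM. COL17A1 was at 12.7 CPM (7.11 to 21.0) and ITGA6 at 12.7 CPM at E120, both below the selected E90 cells. All 12 mitosis genes tested were 2-fold higher at E90. The E120 cells that passed the rule thus differed from the selected E90 cells in many genes, and stage, preparation and depth cannot be told apart in these differences.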

How the data were processed

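Single-cell profiles of goat dorsal skin at E60, E90 and E120 were analysed from 1 table, with cells assigned to stages by the stage in their names, per the labels. Cell Ranger 3.0.2 is named in the submitters' processing notes. The genome build is not given in the sources used here. The deposited values were natural log values, ln(1 + CP10K), made by the authors from UMI counts. This was read from the values: after inversion each cell totalled 10000, and dividing by the lowest nonzero value of its cell gave a whole number for 100% of nonzero values (tolerance 0.01). That lowest value was taken as 1 UMI to recover counts.

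The members and the gene lists were chosen with earlier results of these data known. Counts were summed over each class of E90 cells and scaled to CPM, and log2 ratios used CPM + 1. Genes were compared when 1 sum reached 20 CPM. The genes named were the 8 highest and 8 lowest ratios per comparison among genes with a symbol and at least 100 CPM, without the 18 rule genes, the 6 highest genes of each list, list genes past 2-fold with at least 50 CPM, and the 8 genes with the highest Spearman coefficient. Genes named to spell out small counts, and those with few UMIs in the label check, were added after their values were seen. The planned analysis used sums of counts, as here. The ratio script was checked on simulated counts.

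No doublet was called or removed, and no library correction was made. All cells of the table were used. The alternatives were other keratin, suprabasal and follicle thresholds, thinning to 2000 UMIs, filters on genes and mitochondrial share, other scalings, pseudocounts and expression minimums. Leaving out each gene's highest cell was added after seeing the data. Python 3.11.15, numpy 2.4.6, scipy 1.17.1 and pandas 2.3.3 were used.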

Additional observations from a re-analysis of the deposited data

How the results depend on the processing

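The number of selected cells and the counts of genes past 2-fold moved with most settings. The 4 rules that left 14 to 75 cells gave more genes past 2-fold against all other E90 cells than the 207 of the main rule, and the 4 that took 268 to 704 cells gave fewer. Below, counts are in the order all other E90, suprabasal, follicle and keratin-low cells, and a comparison not listed stayed within 1.5 times. A keratin minimum of 40 CP10K gave 704 cells and 7, 365, 16 and 31 genes. A minimum of 60 gave 268 cells and 51, 399, 59 and 106 genes. A minimum of 120 gave 48 cells and 782, 1087, 758 and 816 genes, and 160 gave 14 cells and 1697, 1999, 1592 and 1700 genes. Allowing no follicle gene gave 30 cells and 1136, 1544, 1119 and 1190 genes. Allowing 2 gave 337 cells, with 105 genes against all other E90, 56 against follicle and 152 against keratin-low cells. The rule on thinned cells gave 389 cells and 108, 407, 30 and 158 genes. Requiring 1000 genes and at most 10% mitochondrial UMIs gave 75 cells, with 525 genes against all other E90, 432 against follicle and 647 against keratin-low cells. A pseudocount of 10 CPM gave 81, 326, 44 and 104 genes. No filter on low genes gave 2575, 4434, 2937 and 2687 genes and 6271 against E120, and a minimum of 100 CPM gave 37, 92, 12 and 53 and 586 against E120. A suprabasal maximum of 200 CP10K gave 1196 genes against suprabasal cells. Of 104 ratios of named genes, 94 to 104 kept their direction in each setting. With a keratin minimum of 40, 120 or 160, 3, 4 and 10 turned, with a suprabasal maximum of 200 3, with no follicle gene 4, and with up to 2 follicle genes or the thinned rule 3 each. Those that had been at least 2-fold were all against suprabasal cells. HBAII and HBAI were at log2 -0.25 and -0.67 with a minimum of 120, at -1.70 and -1.90 with 160, where DEPP1 was at -0.40, and at -0.30 and -0.74 with no follicle gene. CSTA and MMP7 were at 6.61 and 1.34 with the suprabasal maximum of 200, which left far fewer suprabasal cells to compare with. The others were under 2-fold before turning: ITGB4, TP63, CLDN1, TOP2A, IGFBP5, ITGA6 and SPINK5 against all other E90 cells, CAV2 against suprabasal and follicle cells, and MYH10 and SPP1 against follicle cells. The cause was not tested. Genes with under about 10 UMIs in the selected cells, among them most laminin and integrin genes, are limited by depth. No paired analysis was possible because each stage was 1 library.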

Other observations

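A small set among the selected E90 cells was led by KRT14 in place of KRT17. It was noticed after the values were seen, and nothing here was tested. KRT14 exceeded KRT17 in 10 of the 143 selected cells (6.99%), in 21 of 126 suprabasal cells (16.7%), in 9 of 552 follicle cells (1.63%), in 55 of 2129 cells with a keratin sum of 40 to 80 CP10K (2.58%) and in 56 of the 88 E120 cells that passed the rule (63.6%). In the selected cells the median depth was 3736 UMIs in the 10 KRT14-led cells and 3440 in the others.

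In the 10 KRT14-led cells DLK1 was at 685 CPM (455 to 990) against 103 CPM in the other selected cells, a ratio of 6.62 (4.03 to 10.7). These values rested largely on 1 cell, which held 17 of the 28 DLK1 UMIs and 86 of the 209 CXCL14 UMIs, and 6 of the 10 cells had no DLK1 UMI. Without that cell, an alternative chosen after seeing the data, DLK1 was at 322 CPM (161 to 576), a ratio of 3.11 (1.46 to 6.04). CXCL14 went from 5112 CPM to 3597 CPM against 2422 CPM, and FST from 807 CPM to 614 CPM against 334 CPM. S100A2 went from 1394 CPM to 965 CPM against 668 CPM, a ratio whose interval then included 1 (0.978 to 2.07). COL17A1 was at 171 CPM (68.8 to 353) against 81.5 CPM, a ratio whose interval included 1 with that cell (0.795 to 4.73) and without it. ITGA6 had 6 UMIs in the KRT14-led cells, 5 of them in that cell, and its ratio without that cell was 0.588 (0.0143 to 3.59). The ratio of IGFBP5 without that cell was 2.23 (1.02 to 4.36). ALCAM, at 391 CPM against 1086 CPM, and SOX9, a gene of the rule, at 122 CPM against 322 CPM, were lower.

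The same split was then made in cells the rule had not selected, with mixed results. In follicle cells DLK1 was higher in the 9 KRT14-led cells, at 295 CPM against 50.8 CPM, but CXCL14 was lower, at 2653 CPM against 3906 CPM, a ratio of 0.679 (0.561 to 0.815). In cells with a keratin sum of 40 to 80 CP10K DLK1 was at 118 CPM against 42.1 CPM, COL17A1 at 157 CPM against 59.1 CPM, ITGA6 at 115 CPM against 44.3 CPM and IGFBP5 at 264 CPM against 92.7 CPM, while CXCL14 was at 3403 CPM against 3495 CPM. The ratios of S100A2 were 0.881 in follicle cells and 1.10 in the 40 to 80 cells, those of FST were 1.01 and 1.02, and all 4 intervals included 1. In suprabasal cells DLK1 was at 12.4 CPM (from 1 UMI) against 28.0 CPM, and at E120 it had 0 UMIs in both sets. ITGA6 had 0 UMIs in KRT14-led suprabasal cells against 19.4 CPM in the others, while IGFBP5 was at 148 CPM against 68.9 CPM. In follicle cells ITGA6 was at 136 CPM (6 UMIs) against 56.1 CPM, a ratio whose interval included 1 (0.877 to 5.40).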
